A study of Homo sapiens with 4 samples.

Results

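Chemokine receptors are the surface proteins by which leukocytes sense chemokines. The 8 receptor genes CCR1, CCR2, CCR6, CXCR2, CXCR3, CXCR4, CX3CR1 and CCRL2 were taken by gene symbol from a table of 56638 symbols, and all 8 were found in it. A further 14 human chemokine receptor genes served for comparison. The cells were MV4;11, an established human acute myeloid leukaemia line known for its KMT2A-AFF1 fusion and for a FLT3 gene with an internal tandem duplication. Both groups were parental MV4;11 cells grown in RPMI medium and harvested 24 h after the start of treatment. The DMSO group (2 libraries) received vehicle, which one label calls DMSO and the treatment protocol calls PBS. The CU-T12-9 group (2 libraries) received 1 µg/mL of CU-T12-9, a synthetic small molecule that activates the TLR1/TLR2 heterodimer. With 1 cell line, 1 dose and 1 time, and no label naming separate cultures, p-values reflect the scatter of these libraries alone, and that scatter may be technical. The comparison asks how receptor expression in this line responds to a TLR1/2 agonist.

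Conventional chemokine receptors are seven-helix proteins that couple to inhibitory G proteins. The released G protein beta-gamma subunits activate phosphoinositide 3-kinase gamma and Rac exchange factors, and the cell moves up the chemokine gradient. Receptor kinases and arrestins then silence and internalise the receptor. In the myeloid lineage CXCR4 holds progenitors in the bone marrow, CCR2 releases classical monocytes from it, CXCR2 guides neutrophils, and CX3CR1 marks non-classical monocytes.

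Library totals ran from 23087102 to 25867733 reads. Levels are given as CPM, read counts scaled to the library size after adjustment by the trimmed mean of M-values (TMM), and 1 read was worth 0.0384 to 0.0442 CPM. Myeloid markers were abundant, with a summed level of 2857 to 2940 CPM under DMSO and 2139 to 2266 CPM under CU-T12-9 over 9 genes (CD33, ANPEP, SPI1, CEBPA, FLT3, CSF1R, ITGAM, MPO and LYZ). Of these, ANPEP, SPI1, CEBPA, CSF1R and ITGAM rose and CD33, FLT3, MPO and LYZ fell (edgeR quasi-likelihood test). LYZ, the lysozyme gene, made up most of the sum and went from 2002 ± 57.7 to 1276 ± 71.5 CPM. ANPEP (CD13) rose 24.0-fold and ITGAM (CD11b) 4.18-fold, and MPO, the myeloperoxidase gene, fell 27.5-fold. MPO went from 150 and 155 reads under DMSO to 5 and 5 under CU-T12-9. It passed the filter on low counts only through the DMSO libraries, so only a fall could be called. The part of these marker changes in the receptor results was not tested. The 5 erythroid markers had no read in any library, and the 6 T cell markers summed to between 0.0418 and 0.221 CPM. In bulk RNA, fewer cells expressing a receptor and less receptor RNA per cell cannot be told apart.

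CX3CR1 and CXCR3 rose several-fold under CU-T12-9, CCR1 rose slightly, and CCR2, CXCR2 and CXCR4 fell slightly. The change of CCRL2 did not pass the test, and CCR6 was almost unread in both groups. Of the 7 receptors with enough reads to test, 3 rose and 3 fell at an adjusted p under 0.05 (edgeR quasi-likelihood test, Benjamini-Hochberg adjustment over all genes). Across all 14018 tested genes 65.2% were called by the same rule, 32.0% higher and 33.2% lower, so the share of receptors called does not set them apart. Neither does the separation of libraries: in all 7 tested receptors the groups did not overlap, and the same was true of 82.3% of all tested genes. Tested against a change of 1.5-fold, a threshold added after the data were seen, CX3CR1 and CXCR3 were higher and no member was lower, where 24.6% of all genes were called, 12.6% higher and 12.0% lower.

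**Figure D1:**
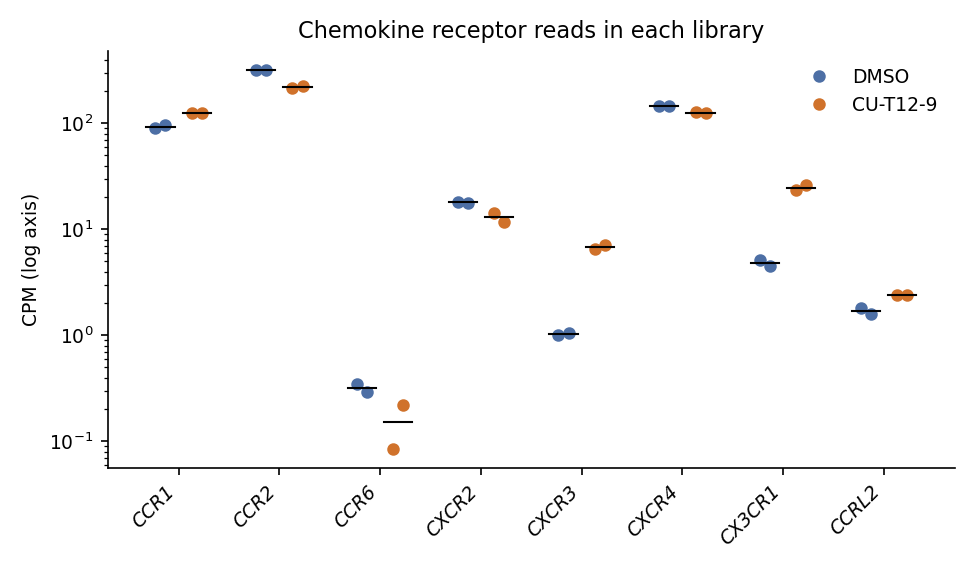
CPM of the 8 receptor genes (log axis) in the 2 DMSO and the 2 CU-T12-9 libraries, with 1 point per library and a black line at each group mean. CX3CR1 and CXCR3 show wide gaps between the groups. CCR2, CXCR4 and CCR1 are the 3 highest genes in every library.

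CX3CR1 encodes the receptor for fractalkine (CX3CL1), a chemokine that can stay tethered to the endothelium. It had 134 and 108 reads in the DMSO libraries, or 5.14 and 4.51 CPM, and 545 and 590 reads in the CU-T12-9 libraries, or 23.3 and 26.1 CPM. Both treated libraries lay far above both controls. The mean went from 4.83 ± 0.448 to 24.7 ± 1.96 CPM (SD, n = 2 in each group), a 5.1-fold rise (log2 fold change 2.35, SE 0.12, edgeR quasi-likelihood adjusted p = 1.86e-07). Against the 1.5-fold threshold the edgeR adjusted p was 6.98e-07. The 95th percentile of log2 fold changes over all tested genes was 1.83, so the rise of CX3CR1 lay beyond it.

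CXCR3 encodes the receptor for the interferon-induced chemokines CXCL9, CXCL10 and CXCL11, and is best known from activated T cells and NK cells. It had 26 and 25 reads under DMSO (0.998 and 1.04 CPM) and 153 and 162 reads under CU-T12-9 (6.54 and 7.16 CPM). The groups did not overlap, and the libraries within each group were close. Its mean rose 6.68-fold, from 1.02 ± 0.0324 to 6.85 ± 0.436 CPM (SD, n = 2), which was the largest change among the 8 genes (log2 fold change 2.74, SE 0.19, edgeR quasi-likelihood adjusted p = 1.80e-06). Against the 1.5-fold threshold the edgeR adjusted p was 6.02e-06. Of the 6 T cell markers, CD3D, CD3G and CD2 had no read in any library and CD3E had 1 read, in a DMSO library. CD5 had no read under DMSO and 3 and 5 reads under CU-T12-9, at least 2.9-fold higher against a floor of 3 reads over the group. The first DMSO library held 3 CD8A reads and the first CU-T12-9 library 1, with 0 in the others. None of the 6 genes could be tested. The 5 NK cell markers summed to 21.0 to 21.7 CPM under DMSO and 32.5 to 34.1 CPM under CU-T12-9. Most of that was NKG7, a granule membrane protein gene, which went from 15.4 ± 0.518 to 30.2 ± 1.23 CPM. The NK receptor gene KLRF1 had no read in any library. NCAM1 (CD56) fell from 5.23 ± 0.905 to 2.5 ± 0.212 CPM. The part of these marker genes in the CXCR3 result was not tested.

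The stretches of DNA before the annotated starts of these 2 risen receptors are shown because the genes moved together, beside that of CCR2, which moved the other way. Each holds the 250 bases before the RefSeq start (GRCh38.p14), read 5′ to 3′ on the gene's strand. The CXCR3 stretch is chrX:71618512-71618761 (minus strand), that of the most upstream of 3 CX3CR1 starts is chr3:39281736-39281985 (minus strand), and that of CCR2 is chr3:46353861-46354110 (plus strand). In the GENCODE annotation (GRCh38) used below for gene lengths, CCR2 starts at base 46353734. The whole printed CCR2 stretch thus lies inside the gene as annotated there, and precedes only the RefSeq start. Capitals mark matches to any of 6 searched motifs, each on both strands.
CXCR3: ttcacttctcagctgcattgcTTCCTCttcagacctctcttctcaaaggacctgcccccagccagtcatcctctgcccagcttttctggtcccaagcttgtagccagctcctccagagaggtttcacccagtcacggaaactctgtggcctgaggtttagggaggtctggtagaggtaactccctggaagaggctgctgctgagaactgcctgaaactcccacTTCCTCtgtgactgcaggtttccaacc
CX3CR1: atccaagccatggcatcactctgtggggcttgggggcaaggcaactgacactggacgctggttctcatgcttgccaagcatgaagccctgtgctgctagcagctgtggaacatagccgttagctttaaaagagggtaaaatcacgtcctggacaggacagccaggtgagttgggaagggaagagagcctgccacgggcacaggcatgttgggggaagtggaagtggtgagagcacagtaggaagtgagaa
CCR2: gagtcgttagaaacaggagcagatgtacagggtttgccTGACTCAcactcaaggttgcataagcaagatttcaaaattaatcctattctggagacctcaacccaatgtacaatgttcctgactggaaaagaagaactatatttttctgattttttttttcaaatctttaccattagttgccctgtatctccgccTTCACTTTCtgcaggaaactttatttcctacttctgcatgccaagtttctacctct

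The motifs were an NF-kB type (GGNNTTTCC), an interferon response type (GAAANNGAA), AP-1 (TGANTCA), PU.1 (GAGGAA), C/EBP (TTGCNNCAA) and a TATA box (TATAAA). The capitals in the CXCR3 stretch are PU.1 letters on the opposite strand, 229 and 27 bases before the start. The printed CX3CR1 stretch held no match, and the stretch before its most downstream start held 1 PU.1 match. The capitals in the CCR2 stretch are an AP-1 match 212 bases and an interferon response match 56 bases before the start. Over the 15 stretches of the 8 genes, PU.1 letters stood in 8 stretches from 5 genes (CCR6, CCRL2, CX3CR1, CXCR3 and CXCR4), and they stood in 23.6% of all 35116 stretches of that length. NF-kB letters stood in 1 member stretch, that of the most upstream CXCR4 start, against 5.48% of all stretches. Interferon response letters stood in 3, those of CCR2, CXCR2 and the most upstream CCR6 start, against 6.88%. AP-1, C/EBP and TATA letters stood in 1, 1 and 2 member stretches, against 6.57%, 1.62% and 10.7% of all. The matches change with the letters chosen: with other forms tried first, each 10 letters long, the NF-kB type matched in CCRL2 only and the interferon response type in CCR6 only. These are matches of letters and describe the sequence only.

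CCR1 encodes a receptor for CCL3 and CCL5 on monocytes. It gave 89.6 and 96.6 CPM under DMSO and 126 and 126 CPM under CU-T12-9. Both treated libraries were higher than both controls. The mean rose 1.36-fold, from 93.1 ± 4.91 to 126 ± 0.316 CPM (SD, n = 2), with a log2 fold change of 0.44 (SE 0.06, edgeR quasi-likelihood adjusted p = 1.08e-04). In the GENCODE 29 annotation (GRCh38) CCR1 lies inside CCR3, which runs on the other strand, with 0 exon bases shared. CCR3 itself was at 1.47 ± 0.285 CPM under DMSO and 1.81 ± 0.257 CPM under CU-T12-9.

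CCR2, the receptor for CCL2 that brings classical monocytes out of the marrow, was the most strongly expressed of the 8 genes in every library. It gave 321 and 320 CPM under DMSO and 216 and 226 CPM under CU-T12-9. The groups were well apart, and the control libraries nearly equal. The mean fell 1.45-fold, from 320 ± 0.883 to 221 ± 6.56 CPM (SD, n = 2), with a log2 fold change of -0.54 (SE 0.05, edgeR quasi-likelihood adjusted p = 1.18e-05). Chemokine receptor genes are similar in coding sequence, and its level is uncertain to the extent that reads were shared with a relative.

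CXCR4 encodes the receptor for CXCL12, which retains blasts and stem cells in the marrow. It gave 147 and 146 CPM under DMSO and 128 and 125 CPM under CU-T12-9. This was the smallest change among the tested members, 1.16-fold lower, although the groups did not overlap. The mean went from 146 ± 1.25 to 126 ± 2.26 CPM (SD, n = 2), with a log2 fold change of -0.22 (SE 0.05, edgeR quasi-likelihood adjusted p = 0.00406). Without the first DMSO library the edgeR adjusted p was 0.0602, so the call was lost, with a log2 fold change of -0.22. The adjusted p ranged from 2.04e-05 to 0.0602 over 11 other settings of the analysis.

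CXCR2 encodes the receptor for CXCL8 and related neutrophil attractants. It gave 18.2 and 17.8 CPM under DMSO and 14.3 and 11.6 CPM under CU-T12-9. The treated libraries were lower and stood further apart than the controls. The mean fell 1.39-fold, from 18 ± 0.288 to 13 ± 1.91 CPM (SD, n = 2), with a log2 fold change of -0.47 (SE 0.11, edgeR quasi-likelihood adjusted p = 0.00476). Without the first CU-T12-9 library the log2 fold change was -0.60 and without the second -0.33. CXCR1, its close relative, was almost unread (4 reads over all libraries), and how reads shared with CXCR1 or with a CXCR2 pseudogene were assigned is not given in the sources. Among neutrophil markers CSF3R, the G-CSF receptor gene, fell 1.42-fold, while FCGR3B and MMP8 had no read in any library.

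CCRL2 encodes an atypical receptor that binds chemerin without classical G protein signalling. It had 47 and 38 reads in the DMSO libraries (1.8 and 1.59 CPM) and 56 and 55 in the treated ones (2.39 and 2.43 CPM). Both treated libraries were above both controls, but the difference did not pass the test. The log2 fold change was 0.50 (SE 0.21, 2 SE either side running from 0.08 to 0.93, edgeR quasi-likelihood adjusted p = 0.064). At this depth a small rise could not be told from almost no change.

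CCR6, the receptor for CCL20 on B cells, Th17 cells and immature dendritic cells, had 9 and 7 reads in the controls and 2 and 5 in the treated libraries. That was too few for the test. The ratio of reads per adjusted library size, CU-T12-9 over DMSO, was 0.475 (exact 95% interval 0.165 to 1.22, counting error only). A difference was not detectable at this depth. With no filter on low counts the edgeR adjusted p was 0.288. B cell markers were low too, with MS4A1 (CD20) at 0 reads in 3 of the 4 libraries and the 5 genes summing to between 1.09 and 1.9 CPM.

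**Figure D2:**
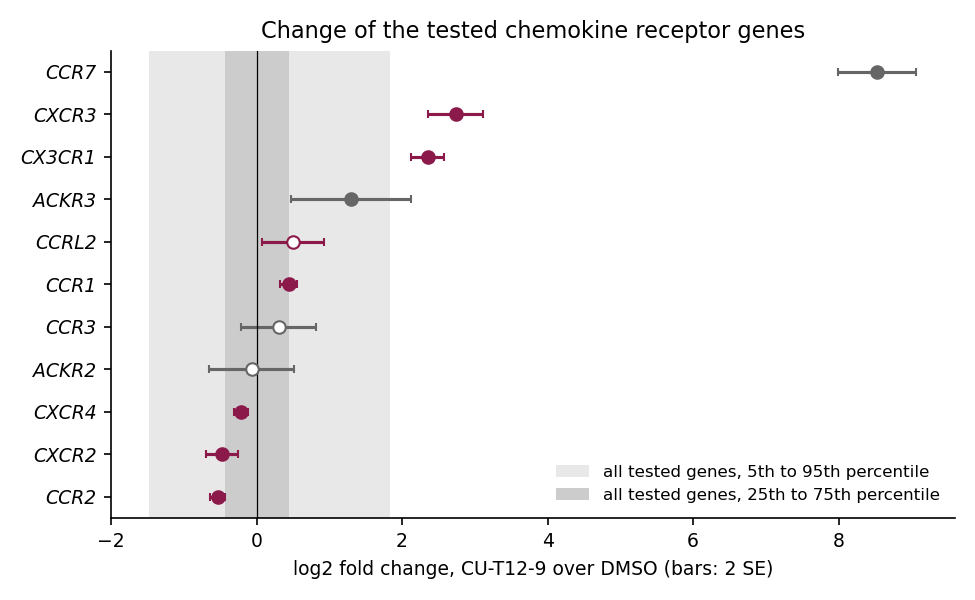
Log2 fold change of 11 tested chemokine receptor genes, with bars of 2 SE. Dark red points are the members and grey points other receptors, and filled points passed the edgeR test. Shading shows the spread of all tested genes. CXCR3 and CX3CR1 lie outside the 5th to 95th percentile range, and the other 5 tested members inside it. The CCR7 point rests on 2 control reads.

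Levels can be compared between genes only per length, so CPM was divided by the kilobases of exon in the GENCODE 29 annotation, which is of another build than the one named for the alignment. Under DMSO the order of mean CPM per kb was CCR2 (85.9 ± 0.237), CXCR4 (65.9 ± 0.56), CCR1 (34.1 ± 1.8), CXCR2 (5.57 ± 0.0891), CX3CR1 (1.32 ± 0.123), CCRL2 (0.554 ± 0.0502), CXCR3 (0.547 ± 0.0174) and CCR6 (0.0734 ± 0.00865). Of neighbours in that order, only CCRL2 and CXCR3 overlapped between libraries. Under CU-T12-9 CX3CR1 (6.76 ± 0.536) stood above CXCR2 (4.02 ± 0.591), and CXCR3 (3.67 ± 0.234) stood above CCRL2 (0.788 ± 0.00833). The libraries of CXCR2 and CXCR3 overlapped there, and those of the other neighbours did not. CCR2 (59.2 ± 1.76), CXCR4 (56.7 ± 1.01) and CCR1 (46.2 ± 0.116) kept the first 3 places, closer to each other than under DMSO.

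The summed per-length level of these 22 chemokine receptor genes was 194 and 195 CPM per kb in the DMSO libraries and 184 and 186 in the CU-T12-9 libraries. Its make-up differed between the groups. CCR2 supplied 44.3 and 43.9% of the sum in the DMSO libraries and 31.4 and 32.5% in the CU-T12-9 libraries. CCR1 went from 16.9 and 18.1% to 25.1 and 24.8%. CX3CR1 went from 0.725 and 0.632% to 3.46 and 3.83%. Within a library, CCR2 reads outnumbered CX3CR1 reads by 62.4 and 70.9 to 1 under DMSO and by 9.28 and 8.65 to 1 under CU-T12-9. CXCR2 reads outnumbered CXCR3 reads by 18.2 and 17 to 1 under DMSO and by 2.19 and 1.62 to 1 under CU-T12-9. These ratios do not depend on the library scaling.

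**Figure D3:**
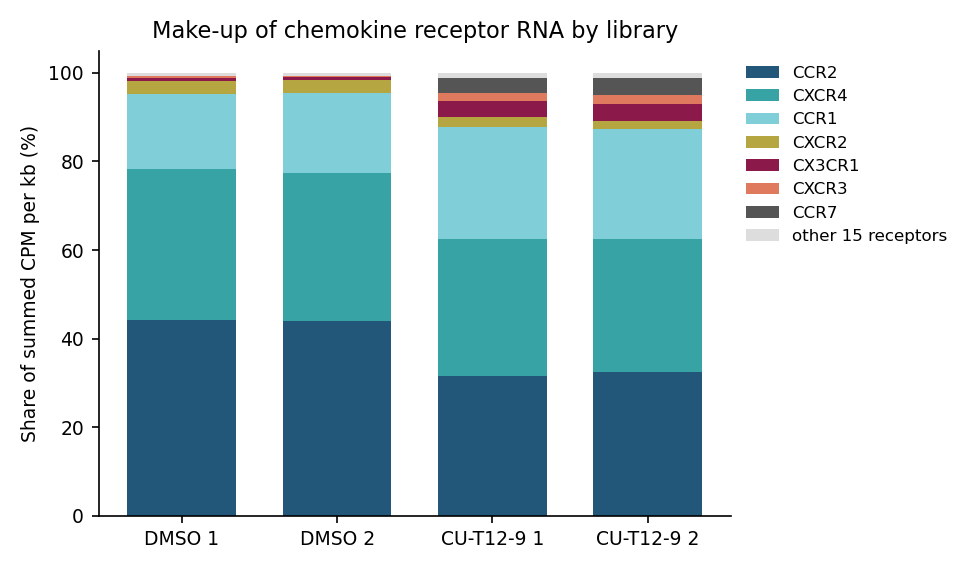
Share (%) of each chemokine receptor in the summed CPM per kb of 22 receptor genes, with 1 bar per library. CCR2 shrinks from 44.3 and 43.9% to 31.4 and 32.5%, and CCR1, CX3CR1, CXCR3 and CCR7 take larger shares under CU-T12-9.

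Of the 8 genes, 4 lie on chromosome 3, 2 on chromosome 2, and 1 each on chromosomes 6 and X. On chromosome 3, CCR1, CCR2 and CCRL2 lie within a stretch of 211.3 kb (GENCODE 29, GRCh38). These neighbours did not move as a block. CCR1 rose, CCR2 fell, and CCRL2 did not pass.

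Of the 14 chemokine receptor genes used for comparison, 4 had enough reads to test. CCR7 and ACKR3 rose and none fell, while CCR3 and ACKR2 did not pass. CCR7 and ACKR3 had too few reads under DMSO to pass the filter there and were tested only through the treated libraries. A call in that fit could thus only be a rise. With no filter the log2 fold changes were 8.52 for CCR7 and 1.29 for ACKR3. CCR7, which guides mature dendritic cells to lymph nodes, had 1 read in each DMSO library, then 373 and 396 in the treated ones. Its ratio was thus far larger than that of any member. ACKR3, a scavenger of CXCL12, went from 8 and 6 reads to 14 and 18 (log2 fold change 1.30, SE 0.41, edgeR quasi-likelihood adjusted p = 0.0208). Its call was lost with DESeq2 (adjusted p = 0.163) and against the 1.5-fold threshold (edgeR adjusted p = 0.105). It was also lost when the first DMSO library, the second DMSO library or the second CU-T12-9 library was left out, with edgeR adjusted p = 0.104, 0.165 and 0.117 in that order, and a filter of 1 CPM left it untested. Over the settings that tested ACKR3, its adjusted p ranged from 0.016 to 0.165. CXCR5 had 3 and 0 reads in the controls against 12 and 5 with the agonist, a ratio of 6.16 (exact 95% interval 1.78 to 32.8, counting error only), and was not tested. With no filter CXCR5 was called higher (log2 fold change 2.51, edgeR adjusted p = 0.0231). Its log2 fold change was 6.12 without the first DMSO library and 1.63 without the second. Without the second CU-T12-9 library it was 2.99. CXCR5 passed the filter in those left-out fits only through the first CU-T12-9 library. A call there could thus only be a rise. CCR4, CCR8, CXCR6, XCR1 and ACKR1 (listed under its older symbol DARC) had no read in any library.

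Most ligand genes that could be tested showed larger fold changes than any of the 8 receptors. Of 24 ligand genes 11 had no read at all, and 7 could be tested. Of those 7, 6 rose and 1 fell, where 32.0% of all tested genes were called higher and 33.2% lower. A gene unread under DMSO could pass the filter only by rising, so these counts favour rises. Of the CCR1 ligands, CCL3 rose from 0.462 ± 0.0557 to 17.3 ± 0.618 CPM (37.2-fold) and CCL5 10.1-fold, from 8.47 ± 0.515 to 85.2 ± 6.08 CPM. CCL23, also a CCR1 ligand, fell 1.63-fold. CCL3 has near-identical gene copies, which makes its level uncertain. CCL2, the CCR2 ligand, rose 12.6-fold, from 2.87 ± 0.849 to 36 ± 1.53 CPM, opposite in direction to its receptor.

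The CXCR2 ligand gene CXCL8 (listed as IL8) rose 15.7-fold, from 2.76 ± 0.108 to 43.4 ± 4.18 CPM, also opposite in direction to its receptor. Of the CXCR3 ligands, CXCL9 and CXCL10 could be tested. Unread under DMSO, both passed the filter only through the treated libraries, so no direction but a rise was possible. Any link to the rise of CXCR3 was not tested. CXCL9 was unread in both controls and had 18 reads in each treated library, at least 13-fold higher against a floor of 3 reads over the group. CXCL10 had none and then 109 and 118 reads, at least 82.2-fold higher against the same floor. CXCL11 had none and then 7 and 12 reads, at least 6.88-fold higher, and was not tested. Only 1 ligand gene was listed for each of CXCR4 (CXCL12), CX3CR1 (CX3CL1), CCR6 (CCL20) and CCRL2 (RARRES2, chemerin). None of these listed genes had a read in any library, and other ligands of these receptors were not examined.

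**Figure D4:**
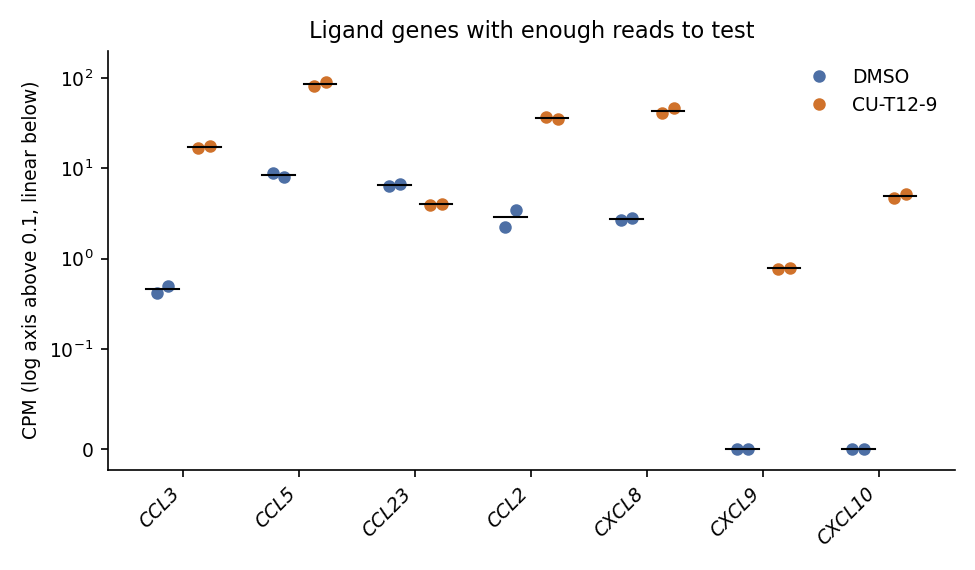
CPM of the 7 ligand genes that could be tested, with 1 point per library and a black line at each group mean (axis logarithmic above 0.1 CPM and linear below). CCL3, CCL5, CCL2, CXCL8, CXCL9 and CXCL10 are higher in both CU-T12-9 libraries, and CCL23 is lower.

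Downstream of the receptors, 13 of 20 signalling genes rose and 5 fell, where 32.0% of all tested genes were called higher and 33.2% lower. The median log2 fold change was 0.32, against 0.00097 over all tested genes. The effectors accounted for 10 of the rises, and none of the 12 effectors fell. PIK3R6 and PIK3R5 encode the adaptors of phosphoinositide 3-kinase gamma. PIK3R6, with a log2 fold change of 2.27, changed most among the risen genes, from 3.86 ± 0.145 to 18.7 ± 0.343 CPM. PREX1, a Rac exchange factor opened by G protein beta-gamma subunits, rose 2.2-fold, from 224 ± 12.1 to 492 ± 25.1 CPM. GNAQ (1.92-fold) and the Rac activator ELMO1 (1.7-fold) followed. The 5 falls were all in G protein subunits. GNG2, a gamma subunit, fell 7.43-fold, from 75 and 72 reads to 9 and 9. GNG2 had too few reads under CU-T12-9 to pass the filter there and was tested only through the DMSO libraries. A call for it could thus only be a fall. GNG5, GNA13 and GNB2 fell by 0.42, 0.41 and 0.27 on the log2 scale.

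Of 18 genes that switch receptors off or sort them, 17 were tested, 6 rose and 4 fell (median log2 fold change -0.08). Over all tested genes 65.2% were called, so these counts do not set the list apart. GRK3 (listed as ADRBK2), a receptor kinase recruited by beta-gamma subunits, rose 3.64-fold, from 35.1 ± 1.87 to 128 ± 0.333 CPM. GRK2 (listed as ADRBK1), its closest relative, did not pass, at 379 ± 8.82 and 359 ± 7.6 CPM. The arrestin gene ARRB1 rose 1.53-fold, while ARRB2 did not pass (40.4 ± 1.55 and 37.7 ± 0.111 CPM). RGS proteins speed the shut-off of G protein alpha subunits. RGS10 rose 2.07-fold and RGS14 1.62-fold, RGS18 fell 5.38-fold and RGS16 1.43-fold. The receptor kinase genes GRK5 and GRK6 fell by 0.77 and 0.42 on the log2 scale.

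Among the 54 other tested genes of the receptor, ligand, signalling and desensitisation lists, the profile over the 4 libraries nearest to CX3CR1 was that of PIK3R6, with a root mean square distance of 0.111 between centred log2 CPM values. The nearest to CXCR3 was CX3CR1 (0.193). RGS16 was nearest to both CCR2 (0.015) and CXCR2 (0.119), VAV1 to CCR1 (0.0392), PIK3CG to CXCR4 (0.0463) and STAM to CCRL2 (0.0453). With 4 libraries in 2 groups, these distances mostly reflect the size of the difference between the groups.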

How the data were processed

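RNA of 2 DMSO and 2 CU-T12-9 libraries of MV4;11 was analysed. The authors deposited whole-number read counts per gene symbol, unnormalised. Per the submitters' processing notes, FastQC 0.11.7, TopHat2, featureCounts 1.5.2 and GRCh37 were used. The sources used here do not give the annotation, the strand setting or how multi-mapping reads were handled, so reads of similar, overlapping or antisense genes may be misassigned.

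Counts were fitted with edgeR 4.0.16 in R 4.3.3 over the whole table (filterByExpr, TMM, quasi-likelihood F-test with group as the only term, Benjamini-Hochberg adjustment over 14018 genes, threshold 0.05). Standard errors were taken as log2 fold change over the square root of F. The fit was tested on simulated data. The replicate pairs differed beyond sampling noise (chi-square per degree of freedom 2.42 for DMSO and 6.99 for CU-T12-9), so all libraries were kept. The biological coefficient of variation was 5%. Intervals and floors (3 reads over a group) pool the reads of a group and cover counting error only, leaving out the scatter between libraries. Without molecular identifiers reads may be copies of one molecule, which they do not cover either.

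The members, gene lists and tests were chosen with earlier results of these data known. Text names every member, each comparison chemokine receptor with at least 10 reads, every called ligand, up to 4 called genes per direction in the signalling and desensitisation lists, and the gene of those lists nearest in profile to each member (log2 of CPM plus 0.05). Other genes named were chosen after their values were seen. Marker lists were myeloid, T cell, B cell, NK cell, erythroid, megakaryocyte (4 genes, 6.81 to 7.06 CPM summed under DMSO and 9.15 to 10 CPM under CU-T12-9) and mature neutrophil (5 genes, 76.5 to 80.8 and 52.9 to 58.1 CPM). The megakaryocyte sum joins opposite changes. GP1BA climbed from 0.0192 ± 0.0271 to 4.37 ± 0.194 CPM (edgeR quasi-likelihood adjusted p = 1.04e-06), where only a rise could pass the filter. ITGA2B dropped from 6.77 ± 0.191 to 5.2 ± 0.398 CPM (same test, adjusted p = 0.0331). GP9 dropped from 0.141 ± 0.0367 to 0.0221 ± 0.0313 CPM without being tested, while PF4 was unread. Alternatives were other scalings, tools (DESeq2 1.42.0, limma-voom 3.58.1), filters, a replicate block, leaving out each library and a 1.5-fold threshold. Promoter sequences are from RefSeq, in which all 8 members matched by symbol. The result of 1 further chemokine receptor gene is not reported here.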

Additional observations from a re-analysis of the deposited data

How the results depend on the processing

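Over 11 settings (2 scalings, 2 other tools, 2 filters, a replicate block and 4 left-out libraries), the 7 tested receptors kept their direction, and the only call lost was that of CXCR4 without the first DMSO library. CXCR4 ranged from -0.24 to -0.20 (log2) when 1 library was left out. The added test against a 1.5-fold change, which sets a stricter threshold by construction, called 1761 genes higher and 1688 lower. It kept 2 members higher and 0 lower, with CCR1 (log2 fold change 0.44), CCR2 (-0.54), CXCR2 (-0.47) and CXCR4 (-0.22) no longer called. It called 1 comparison chemokine receptor higher, 0 ligands lower, 4 signalling genes higher and 1 lower, and 2 desensitisation genes higher and 1 lower. Of the comparison receptors 1 rather than 2 was higher with DESeq2 and with a filter of 1 CPM, and between 1 and 2 when 1 library was left out. That count does not follow the same genes, although CCR7 was called in every setting. ACKR3 was lost without either DMSO library and without the second CU-T12-9 library, and CXCR5 was called in its place in some of those fits. There CXCR5 passed the filter only through the first CU-T12-9 library, so it could only be called higher. CCRL2 was not called in any alternative (adjusted p from 0.0526 to 0.339 over those 11). The replicate numbers share only a number: deviations of same-numbered libraries correlated at 0.0079 across genes, and the fit with the replicate block called 4488 genes higher and 4655 lower and changed no call among the members (CX3CR1 2.35, CXCR3 2.74, CCR1 0.44, CCR2 -0.54). At this depth a difference in CCR6 was not detectable.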
